A study of Mus musculus with 6 samples.

Results

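The genes described here are 33 mouse genes of S phase and DNA replication, chosen by name from their known roles. The choice was made with earlier results of these data known. The genes were found in the count table through their Entrez Gene identifiers. All 33 were matched, out of 27179 gene rows, and all 33 passed the filter on low counts, so no member is missing from the values below. Group 2 innate lymphoid cells (ILC2s) live in tissues, release type 2 cytokines and carry no rearranged antigen receptor. ILC2s from mice were taken from a Chat negative gate (3 libraries) or a Chat positive gate (3 libraries), and their RNA was sequenced from ultra-low-input libraries. Chat encodes choline acetyltransferase, which makes acetylcholine. Both gates hold sorted ILC2s. The sources used here do not give the strain, genotype, age, tissue, any treatment or the reporter or stain behind the gate, nor do they state whether a library comes from 1 animal or a pool. Libraries are called Chat negative 1 to 3 and Chat positive 1 to 3, after the sample numbers in the labels. What a shared number marks is not stated.

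Before a cell copies its DNA, the Mcm2 to Mcm7 ring is loaded onto replication origins by Cdc6 and Cdt1, a step called licensing. Cdc45, the GINS proteins and Mcm10 then turn the loaded ring into a moving helicase, and polymerases, a sliding clamp and its loader follow it while ribonucleotide reductase and thymidylate synthase supply nucleotides. E2F transcription factors and cyclin E switch many of these genes on as cells pass from G1 into S phase, so their transcripts are widely used as a sign of proliferation in activated lymphocytes, ILC2s included.

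E2F proteins bind promoters through a short GC-rich site, and the promoters of 3 members are printed here. Whether E2F binding has a part in the values that follow was not tested. Each is the 250 bases before the start of a RefSeq transcript on the gene's own strand, from GRCm38.p6 (mm10), with any match to an E2F word in capitals. The words searched on both strands were TTTCCCGC, TTTCGCGC, TTTGCCGC and TTTGGCGC. Mcm5 (chr8:75109259-75109508, plus strand) and Mcm6 (chr1:128359706-128359955, minus strand) hold such words upstream of the start. Rrm2 (chr12:24708004-24708253, plus strand), the member with the smallest p for the replicate number, holds none. The transcript start lies 41 bases inside the outer start of the gene for Mcm5 and at it for the other 2 genes.
Mcm5: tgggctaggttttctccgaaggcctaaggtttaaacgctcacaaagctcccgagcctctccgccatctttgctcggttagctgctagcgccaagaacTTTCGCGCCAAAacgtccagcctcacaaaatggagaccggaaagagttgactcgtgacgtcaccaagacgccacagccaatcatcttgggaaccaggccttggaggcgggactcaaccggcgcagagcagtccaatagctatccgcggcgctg
Mcm6: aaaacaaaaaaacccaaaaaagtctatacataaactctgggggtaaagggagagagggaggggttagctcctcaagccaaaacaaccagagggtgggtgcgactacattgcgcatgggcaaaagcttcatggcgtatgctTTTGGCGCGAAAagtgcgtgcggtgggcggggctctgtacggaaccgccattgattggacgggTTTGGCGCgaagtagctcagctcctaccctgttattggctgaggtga
Rrm2: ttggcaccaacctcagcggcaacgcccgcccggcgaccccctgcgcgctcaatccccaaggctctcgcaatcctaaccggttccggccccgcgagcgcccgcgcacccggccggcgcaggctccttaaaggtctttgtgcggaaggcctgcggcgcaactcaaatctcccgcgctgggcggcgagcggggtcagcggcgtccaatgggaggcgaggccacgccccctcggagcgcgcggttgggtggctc
In Mcm5 the capitals are 2 overlapping words that begin 153 and 149 bases before the start. In Mcm6 they are 2 overlapping words at 110 and 106 bases and 1 word at 47 bases.

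The libraries held 37154269 to 50361306 counts each, and the members took 0.259% to 0.587% of them. Values below are CPM, counts scaled to a common library size with TMM factors, unless log2 CPM of the unscaled counts is named. Chat itself measured 16.5, 26.5 and 17.5 CPM in Chat negative 1, 2 and 3 and 188, 169 and 204 CPM in Chat positive 1, 2 and 3, a log2 difference of 3.21 (SE 0.21, adjusted p = 0.0174, edgeR quasi-likelihood test), in the direction of the labels. Markers of ILC2s were high in the 6 libraries (12 of 12 markers tested, sums of 18283 to 25966 CPM). Libraries with equal number deviated together from their gate means (correlation over genes 0.290, 0.674 and 0.430 for numbers 1, 2 and 3). Chat negative 1 correlated at 0.301 with Chat positive 3, and Chat negative 3 at 0.197 with Chat positive 1. Deviations from a gate mean cancel out within the gate, so the correlations depend on each other. They cannot show whether numbers 1 and 3 were alike. The libraries of number 2 had the highest correlation with each other. Their values against libraries of another number in the other gate (−0.340 to −0.535) follow in part from that cancelling. Nothing in the labels says that the libraries came from separate cultures or animals, so p-values measure only how far these samples spread, and that spread may be technical.

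No replication gene passed the test between Chat positive and Chat negative ILC2s, and their summed level was nearly the same in both gates. The 33 members summed to 3195, 5832 and 2643 CPM in Chat negative 1, 2 and 3 and to 3261, 5670 and 2676 CPM in Chat positive 1, 2 and 3. The means were 3890 ± 1705 and 3869 ± 1587 CPM (SD, n = 3 each), a log2 ratio of −0.01. Library 2 held more of these transcripts than libraries 1 and 3 in both gates, so the SD was large and the gates overlapped. In bulk RNA, fewer cells in S phase and less RNA of these genes per cell cannot be told apart. Within a number, Chat positive over Chat negative was 1.02, 0.972 and 1.01. Of the 33 members, 0 differed between the gates at an adjusted p under 0.05 in edgeR, against 0.00771% of the 12967 genes tested, which is Chat alone. By DESeq2 and by limma-voom the count was also 0, where 4 and 1 of all genes tested were called. In edgeR 0 members had an unadjusted p under 0.05, against 315 of the 12967 genes tested. The smallest among the members was 0.270 (E2f1). The members' log2 differences ran from −0.41 (Clspn) to 0.28 (Ccne2) with a median of 0.02, beside 0.00 over all genes tested. Above 0 lay 18 members and below 0 lay 15, with 50.9% of all genes tested above 0. No member had gates that failed to overlap (0 of 33, against 8.14% of genes).

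The gate comparison had little precision without the replicate number. The 95% intervals reached from −1.55 to 1.33 over the members, with a median SE of 0.38. With the number as a block in the edgeR fit, the median SE was 0.07 and the intervals reached from −0.66 to 0.53. With the block 0.339% of genes were called between the gates, Chat not among them (adjusted p = 0.0961, edgeR), and again 0 of 33 members were called. The block takes equal numbers as pairs, which is an assumption for numbers 1 and 3. On simulated data it called unchanged genes in a larger share of its calls than the threshold. Under the block, 29 of the 33 intervals lay within 0.5 of 0 on the log2 scale, and 27 included 0. The other 6 members (18.2%) had an unadjusted p under 0.05, where 16.5% of all genes tested did. They were Tyms, Prim1, Tipin, Ccne1 and Ccne2, each higher in Chat positive, and Clspn, lower, with the smallest adjusted p at 0.130 (Tyms, edgeR with the block). A member higher in Chat positive in each of the 3 numbers was counted 11 times (22.3% of all genes tested), and a member lower in each of the 3 numbers 7 times (17.3% of genes). Leaving out a library of number 2 moved the members' direction: 31 of 33 were above 0 without Chat negative 2, and 0 of 33 without Chat positive 2.

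**Figure D1:**
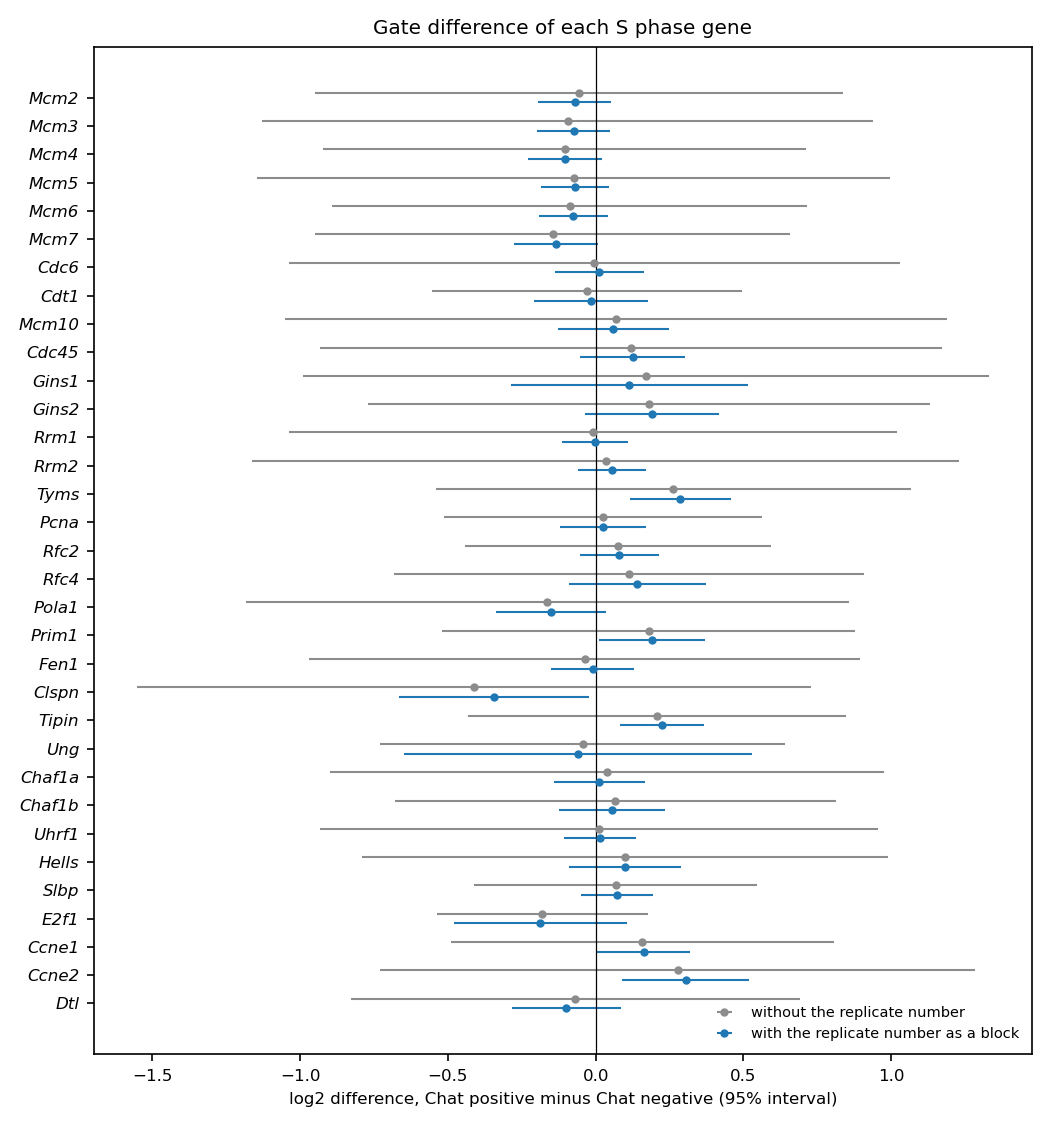
Log2 difference of each of the 33 genes between Chat positive and Chat negative libraries (x axis) with its 95% interval, from edgeR without the replicate number (grey) and with it as a block (blue). The grey intervals reach from −1.55 to 1.33 and include 0 for each gene, and the blue intervals are narrower and include 0 for 27 genes.

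The members varied instead with the replicate number. In both gates the library of number 2 had the highest level of 31 members, and 27 members had the order 2, 1, 3 from high to low in both gates. The share of all genes tested with number 2 highest in both gates was 31.2%, and with that order in both gates 13.4%. In a model with the gate as a covariate, 31 of 33 members differed among the 3 numbers at an adjusted p under 0.05 (edgeR quasi-likelihood F test), where 32.5% of all genes tested did. All 31 called members were highest in number 2 in both gates, a pattern with a call in 16.5% of genes. The exceptions were E2f1 (adjusted p = 0.599, edgeR) and Ung (adjusted p = 0.530, edgeR). The median member was 2.05-fold higher in number 2 than in number 3 (range 0.911 to 2.87) and 1.75-fold higher than in number 1 (range 0.883 to 2.29). On the log2 scale the median member differed by 1.04 between numbers 2 and 3, beside −0.01 over all genes tested. Within a single gate, the 31 members were 1.43-fold to 3.29-fold higher in library 2 than in library 3 and 1.25-fold to 2.303-fold higher than in library 1.

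The fit for the number had 2 residual degrees of freedom, as did the gate fit with the block. On simulated data both called unchanged genes in a larger share of their calls than the threshold. The same 31 members were called with DESeq2 and with limma-voom. Leaving out 1 library at a time gave 28 to 32 calls, with Cdt1, Gins1 and Rfc4 lost without Chat negative 2. Without both libraries of number 2, 0 members and 0 of 13025 genes were called by edgeR (19 members and 1680 genes at an unadjusted p under 0.05) in a fit left with 4 libraries. Number 1 lay above number 3 in both gates for the summed members (1.21-fold and 1.22-fold).

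**Figure D2:**
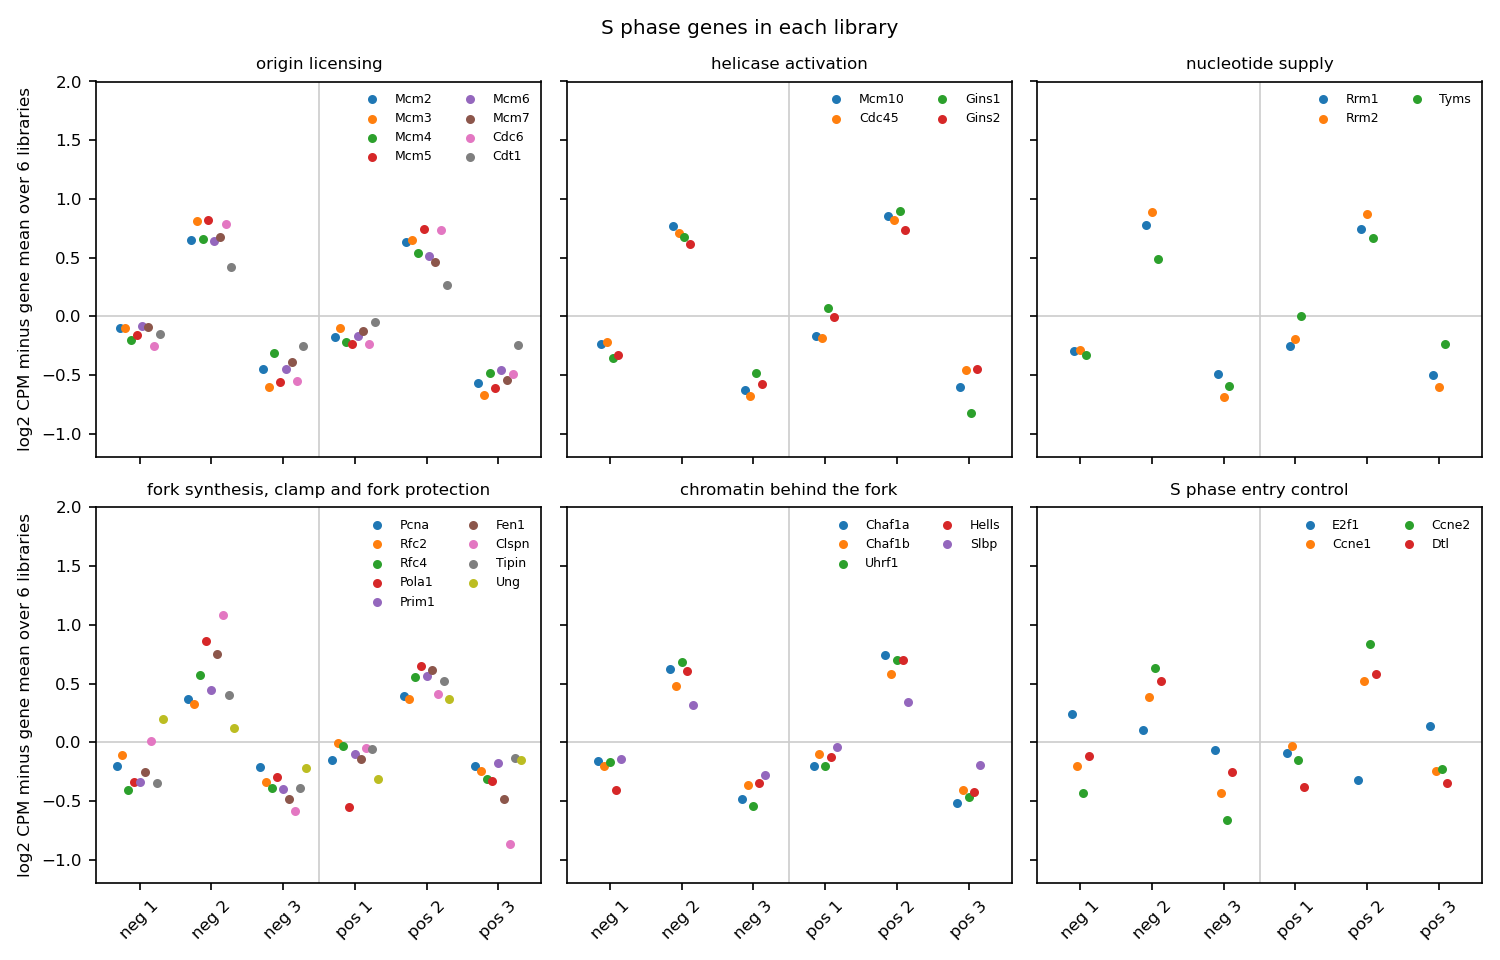
Each panel holds the genes of 1 step of replication. Each point is a gene's log2 CPM (no pseudocount) in 1 library minus that gene's mean over the 6 libraries (y axis). Chat negative 1 to 3 stand left and Chat positive 1 to 3 right of the vertical grey line. Points of libraries neg 2 and pos 2 lie above 0 for 31 genes and Ung, and E2f1 (entry panel) falls to its lowest point in pos 2.

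**Figure D3:**
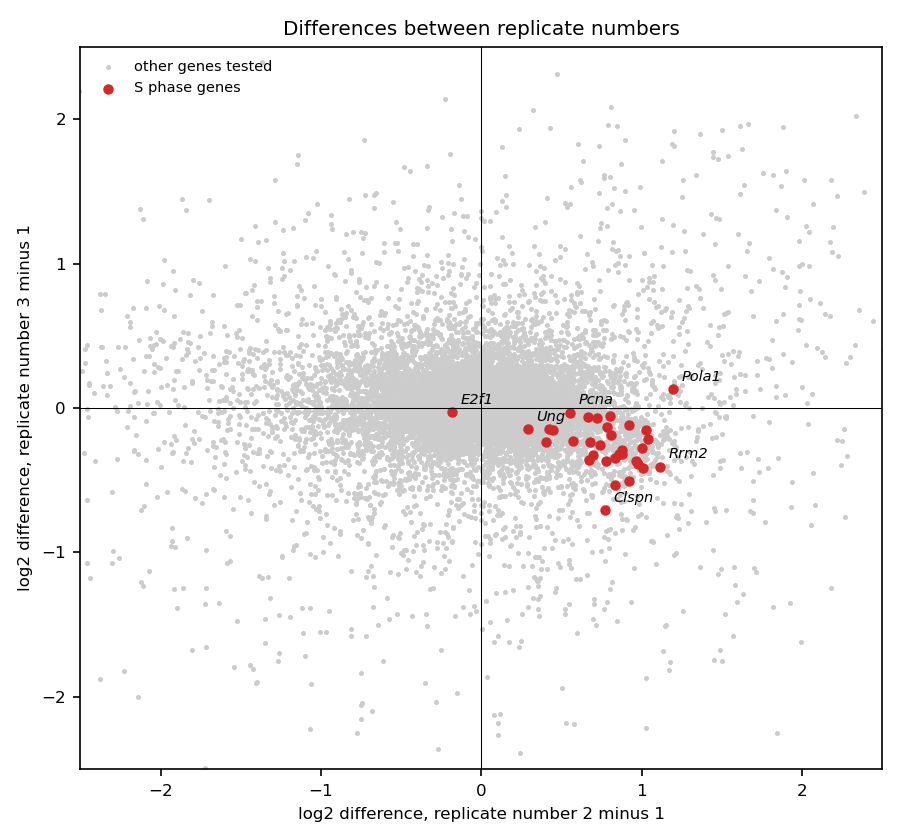
Log2 difference of number 2 minus number 1 (x axis) against number 3 minus number 1 (y axis), from edgeR with the gate as a covariate. Red points are the 33 S phase genes and grey points the other 12934 genes tested, of which 140 lie beyond the axes. The red points sit right of 0 except E2f1, and most lie below 0 on the y axis.

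Licensing genes include the ring subunits, and all 8 members of this step were called for the number and none for the gate. They summed to 1261, 2253 and 1001 CPM in Chat negative 1, 2 and 3 and to 1224, 2084 and 950.1 CPM in Chat positive 1, 2 and 3. Their median log2 CPM of unscaled counts was 7.48, 8.29 and 7.11 in Chat negative 1, 2 and 3 and 7.43, 8.25 and 7.05 in Chat positive 1, 2 and 3. Mcm6 had the highest CPM of this step, with 287, 473 and 223 CPM in Chat negative 1, 2 and 3 and 271, 433 and 221 CPM in Chat positive 1, 2 and 3. Mcm5 (Entrez Gene 17218, chr8:75109468-75128439 on mm10, as are the gene positions that follow), whose promoter is printed above, had the smallest p for the number in this step, with 196, 388 and 149 CPM in Chat negative 1, 2 and 3 and 186, 367 and 143 CPM in Chat positive 1, 2 and 3. Library 2 was the highest and library 3 the lowest in each gate for both subunits, and the gates overlapped. For Mcm5 the log2 difference of number 2 minus number 3 was 1.37 (SE 0.06), with adjusted p = 5.49e-06 for the number (edgeR).

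The other ring subunits followed the same order. Mcm2 had 168, 282 and 132 CPM in Chat negative 1, 2 and 3 and 159, 279 and 121 CPM in Chat positive 1, 2 and 3. Mcm3, with the largest number 2 minus number 3 difference of this step beside Mcm5, had 229.7, 433 and 162 CPM in Chat negative and 230.0, 387 and 155 CPM in Chat positive libraries. Mcm4 and Mcm7 ranged over the 6 libraries from 155 to 342 and from 71.9 to 167 CPM. Each of the 6 ring subunits had a log2 gate difference below 0 (median −0.09), the lowest being Mcm7 at −0.15 (SE 0.34), and none passed the test. Mcm7 measured 98.4, 167 and 79.96 CPM in Chat negative 1, 2 and 3 and 96.3, 144 and 71.9 CPM in Chat positive 1, 2 and 3, with the gates overlapping, and with the number as a block its log2 difference was −0.13 (SE 0.06), adjusted p = 0.330 (edgeR). Mcm2, Mcm4, Mcm5, Mcm6 and Mcm7 were lower in Chat positive within each of the 3 numbers, and Mcm3 within 2 of 3. Mcm7 shares 7.25% of its exonic bases with Ap4m1 on the opposite strand and overlaps the microRNA genes Mir25 (1.9% of its exonic bases) and Mir93 (1.99%) on its own strand.

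Both loaders of the ring were called for the number. Cdc6, the ATPase that brings the ring to the origin, had 55.1, 113 and 44.8 CPM in Chat negative 1, 2 and 3 and 55.8, 109 and 46.8 CPM in Chat positive 1, 2 and 3, 2.43-fold more in number 2 than in number 3. Cdt1, its partner, had 37.9, 56.4 and 35.3 CPM in Chat negative 1, 2 and 3 and 40.7, 50.7 and 35.5 CPM in Chat positive 1, 2 and 3, a 1.51-fold difference between the same numbers (adjusted p = 0.00446, edgeR). That was the largest adjusted p among the 31 called members. Cdt1 protein is known to be controlled mostly by geminin and by degradation in S phase, which transcript counts do not measure.

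Helicase activation genes were called for the number in 4 of 4 cases and for the gate in none. The 4 members summed to 89.6, 174 and 69.2 CPM in Chat negative 1, 2 and 3 and to 98.4, 189 and 74.4 CPM in Chat positive 1, 2 and 3. Their median log2 CPM of unscaled counts was 4.54, 5.49 and 4.21 in Chat negative 1, 2 and 3 and 4.72, 5.62 and 4.31 in Chat positive 1, 2 and 3. Cdc45, a fixed part of the moving helicase, had 37.7, 71.6 and 27.4 CPM in Chat negative 1, 2 and 3 and 38.7, 77.6 and 31.97 CPM in Chat positive 1, 2 and 3. Mcm10, which helps start the helicase, had 28.6, 57.1 and 21.7 CPM in Chat negative 1, 2 and 3 and 29.8, 60.6 and 22.1 CPM in Chat positive 1, 2 and 3, a log2 difference of 1.43 (SE 0.10) between numbers 2 and 3 (adjusted p = 3.21e-05, edgeR). The median member of this step was 2.60-fold higher in number 2 than in number 3, with a range of 2.27 to 2.70.

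Of the GINS subunits, Gins2 had 17.4, 33.4 and 14.7 CPM in Chat negative 1, 2 and 3 and 21.8, 36.4 and 16.02 CPM in Chat positive 1, 2 and 3. Gins1 had 5.93, 12.1 and 5.42 CPM in Chat negative 1, 2 and 3 and 7.97, 14.1 and 4.298 CPM in Chat positive 1, 2 and 3. Library 2 was again the highest in each gate. Each of the 4 members had a log2 gate difference above 0, with a median of 0.14, the largest being Gins2 at 0.18 (SE 0.40), and none passed the test. Within a number, the sum of the 4 was 1.10, 1.08 and 1.07 times as high in Chat positive as in Chat negative. Gins2 shares 67.3% of its exonic bases with Gse1 on the opposite strand. As the sources used here do not give the strand setting of the counting, its reads may include those of Gse1.

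Nucleotide supply genes included the member with the highest CPM of the list, Rrm2, and all 3 were called for the number. They summed to 726, 1570 and 588 CPM in Chat negative 1, 2 and 3 and to 770, 1557 and 614 CPM in Chat positive 1, 2 and 3. Their median log2 CPM of unscaled counts was 8.24, 9.33 and 8.03 in Chat negative 1, 2 and 3 and 8.28, 9.32 and 8.05 in Chat positive 1, 2 and 3. Rrm2 (Entrez Gene 20135, chr12:24708254-24714146) encodes the small subunit of ribonucleotide reductase, made anew in each S phase, and had 382, 857 and 288 CPM in Chat negative 1, 2 and 3 and 406, 851 and 306 CPM in Chat positive 1, 2 and 3. Its gate means were 509 ± 305 for the Chat negative and 521 ± 289.8 for the Chat positive gate (CPM, SD, n = 3 each), a log2 gate difference of 0.03 (SE 0.51). Its log2 difference between numbers 2 and 3 was 1.52 (SE 0.06), with adjusted p = 2.77e-06 for the number (edgeR), the smallest of the 33 members. No E2F word stands in the Rrm2 promoter printed above.

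Rrm1, the large subunit, had 303, 639.8 and 266 CPM in Chat negative 1, 2 and 3 and 312, 625 and 264 CPM in Chat positive 1, 2 and 3, a log2 difference of 1.26 (SE 0.06) between numbers 2 and 3. Tyms (Entrez Gene 22171, chr5:30038546-30073645), the thymidylate synthase that makes dTMP, had 41.3, 72.5 and 34.2 CPM in Chat negative 1, 2 and 3 and 51.8, 82.01 and 43.8 CPM in Chat positive 1, 2 and 3. It was higher in Chat positive within each number, while the gates overlapped over the 3 libraries. Its log2 gate difference was 0.26 (SE 0.34) without and 0.29 (SE 0.08) with the number as a block, where the adjusted p was 0.130 (edgeR). The processed copy Tyms-ps was counted 0 to 9 times in a library.

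Fork genes were called for the number in 8 of 9 cases, the exception being Ung, and for the gate in none. Their median log2 CPM of unscaled counts was 5.08, 6.201 and 5.03 in Chat negative 1, 2 and 3 and 5.31, 6.02 and 5.24 in Chat positive 1, 2 and 3. Fen1, the nuclease that trims flaps between Okazaki fragments, had 133, 266 and 113 CPM in Chat negative 1, 2 and 3 and 143, 242 and 113 CPM in Chat positive 1, 2 and 3. Its adjusted p for the number was 2.15e-05 (edgeR). In the annotation Fen1 shares 78.8% of its exonic bases with the antisense gene Gm10143, whose reads cannot be told apart without strand. Pcna (Entrez Gene 18538, chr2:132249286-132253180), the sliding clamp, had 62.4, 92.8 and 62.04 CPM in Chat negative 1, 2 and 3 and 64.7, 94.1 and 62.2 CPM in Chat positive 1, 2 and 3. That was 1.505-fold more in number 2 than in number 3, one of the narrower differences in the list. The clamp loader subunit Rfc2 had 93.6, 127 and 80.1 CPM in Chat negative 1, 2 and 3 and 101, 130.3 and 85.5 CPM in Chat positive 1, 2 and 3. Its fellow subunit Rfc4 had 23.9, 47.3 and 24.3 CPM in Chat negative 1, 2 and 3 and 31.03, 46.6 and 25.6 CPM in Chat positive 1, 2 and 3. For both, library 2 was the highest in each gate. On the opposite strand Rfc2 shares 15.1% of its exonic bases with Lat2 and Rfc4 12.7% with Eif4a2.

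Both genes for starting new strands were called for the number. Pola1, the catalytic subunit of DNA polymerase alpha, had 31.6, 72.1 and 32.4 CPM in Chat negative 1, 2 and 3 and 27.1, 62.5 and 31.7 CPM in Chat positive 1, 2 and 3. Library 2 stood above both others in each gate, and libraries 1 and 3 were close. Prim1, the primase that works with it, had 33.02, 56.8 and 31.7 CPM in Chat negative 1, 2 and 3 and 38.8, 61.7 and 36.9 CPM in Chat positive 1, 2 and 3, and its log2 gate difference was 0.19 (SE 0.08) with the block (adjusted p = 0.276, edgeR).

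Clspn had the widest gate difference of the list, and it did not pass the test. Clspn, the adaptor through which stalled forks activate Chek1, had 13.1, 27.6 and 8.68 CPM in Chat negative 1, 2 and 3 and 12.6, 17.4 and 7.15 CPM in Chat positive 1, 2 and 3. It was lower in Chat positive within each number, with the widest gap in number 2. Its log2 gate difference was −0.41 (SE 0.48) without and −0.34 (SE 0.14) with the block (adjusted p = 0.276, edgeR). Tipin, the partner of Timeless at the fork, had 82.6, 139 and 80.03 CPM in Chat negative 1, 2 and 3 and 101, 151 and 95.9 CPM in Chat positive 1, 2 and 3, higher in Chat positive within each number. With the block its log2 gate difference was 0.23 (SE 0.06), with adjusted p = 0.145 (edgeR).

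Ung, the glycosylase that removes uracil from new DNA, was the lowest member and was not called for the number. It had 3.002, 2.86 and 2.25 CPM in Chat negative 1, 2 and 3 and 2.11, 3.38 and 2.36 CPM in Chat positive 1, 2 and 3, with 78 counts in its lowest library, while no other member fell under 173 counts. Its log2 difference between numbers 2 and 3 was 0.44 (SE 0.32), with adjusted p = 0.530 for the number (edgeR). The log2 difference measured for Pcna between the same numbers (0.59) is smaller than 2 such SE. Whether the low counts of Ung had a part in the missing call was not tested.

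Genes that rebuild chromatin behind the fork were called for the number in 5 of 5 cases and for the gate in none. Their median log2 CPM of unscaled counts was 5.99, 6.78 and 5.65 in Chat negative 1, 2 and 3 and 5.95, 6.91 and 5.64 in Chat positive 1, 2 and 3. Uhrf1, which reads hemimethylated DNA and brings Dnmt1 to it, was the highest of this step with 155, 279.7 and 119.7 CPM in Chat negative 1, 2 and 3 and 151, 282 and 126 CPM in Chat positive 1, 2 and 3. Its gate means were 185 ± 84.1 for the Chat negative and 186 ± 83.8 for the Chat positive gate (CPM, SD, n = 3 each), and its number difference had adjusted p = 1.03e-05 (edgeR). Chaf1a, a subunit of the CAF-1 histone chaperone, had 62.7, 108 and 50.2 CPM in Chat negative 1, 2 and 3 and 60.9, 117 and 48.8 CPM in Chat positive 1, 2 and 3. Its partner Chaf1b had 38.1, 61.1 and 34.1 CPM in Chat negative 1, 2 and 3 and 40.9, 65.5 and 33.1 CPM in Chat positive 1, 2 and 3. Library 2 was the highest for both subunits in both gates. Chaf1a shares 52.5% of its exonic bases with Ubxn6 on the opposite strand. Hells, a chromatin remodeller, had the largest gate difference of the step at 0.10 (SE 0.38) on the log2 scale, with 41.9, 84.9 and 43.7 CPM in Chat negative 1, 2 and 3 and 50.9, 90.2 and 41.5 CPM in Chat positive 1, 2 and 3. Slbp, which binds the stem-loop of histone mRNAs, had 156, 214 and 142 CPM in Chat negative 1, 2 and 3 and 167, 219 and 151 CPM in Chat positive 1, 2 and 3. That 1.48-fold difference between numbers 2 and 3 was the smallest among the 31 members called.

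Of the 4 S phase entry genes, 3 were called for the number and E2f1 was not. E2f1 (Entrez Gene 13555, chr2:154559400-154569892), the transcription factor, had 69.9, 63.4 and 56.6 CPM in Chat negative 1, 2 and 3 and 55.4, 47.3 and 64.9 CPM in Chat positive 1, 2 and 3. Its highest library was number 1 in Chat negative and number 3 in Chat positive, so no number was highest in both gates. Its gate means were 63.3 ± 6.65 for the Chat negative and 55.9 ± 8.81 for the Chat positive gate (CPM, SD, n = 3 each), a log2 gate difference of −0.18 (SE 0.15), and this was the only member whose direction held when any 1 library was left out (−0.32 to −0.07). Its adjusted p was 1.00 for the gate and 0.599 for the number (edgeR). Without Chat negative 3 it was called for the number, and with all 6 libraries it was not.

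The cyclin E genes, partners of Cdk2 at S phase entry, were called for the number. Ccne1 had 48.3, 72.6 and 41.1 CPM in Chat negative 1, 2 and 3 and 54.3, 79.6 and 46.7 CPM in Chat positive 1, 2 and 3. Ccne2 had 19.999, 41.8 and 16.97 CPM in Chat negative 1, 2 and 3 and 24.2, 48.2 and 23.005 CPM in Chat positive 1, 2 and 3, 2.25-fold more in number 2 than in number 3 (adjusted p = 0.000141, edgeR). Both were higher in Chat positive within each number, with Ccne2 at 0.30 (SE 0.09) on the log2 scale with the block (adjusted p = 0.172, edgeR). Ccne2 shares 17.4% of its exonic bases with Ints8 on the opposite strand. Dtl, the ubiquitin ligase receptor that removes Cdt1 at the clamp, had 50.3, 78.5 and 45.9 CPM in Chat negative 1, 2 and 3 and 41.95, 81.7 and 42.9 CPM in Chat positive 1, 2 and 3. Their median log2 CPM of unscaled counts, E2f1 included, was 5.65, 6.11 and 5.44 in Chat negative 1, 2 and 3 and 5.601, 6.01 and 5.52 in Chat positive 1, 2 and 3.

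Across the 6 libraries each of the 31 called members correlated with the mean of the other members at r of 0.904 or more (n = 6 libraries, which share gate, number and library preparation). Ung had r = 0.712 and E2f1 r = −0.411. This is a description of 6 points of which 2 are libraries of number 2.

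Per length of transcript, the subunits of ribonucleotide reductase were the highest. The length was that of the longest annotated protein-coding transcript of each gene, so the order and ratios below depend on that choice. Rrm2 measured 235 CPM per kb of transcript as the mean of the 6 libraries, Rrm1 100.5, Slbp 91.7 and Mcm3 87.8. The 6 ring subunits, which stand in equal numbers in the protein ring, differed by 2.37-fold in CPM per kb, from Mcm7 at 36.99 to Mcm3 at 87.8. The small subunit Rrm2 was 2.34-fold above the large subunit Rrm1 per kb, and 1.98-fold to 2.48-fold above it within single libraries. Clspn (2.87 CPM per kb) and Ung (1.25 CPM per kb) were the lowest.

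**Figure D4:**
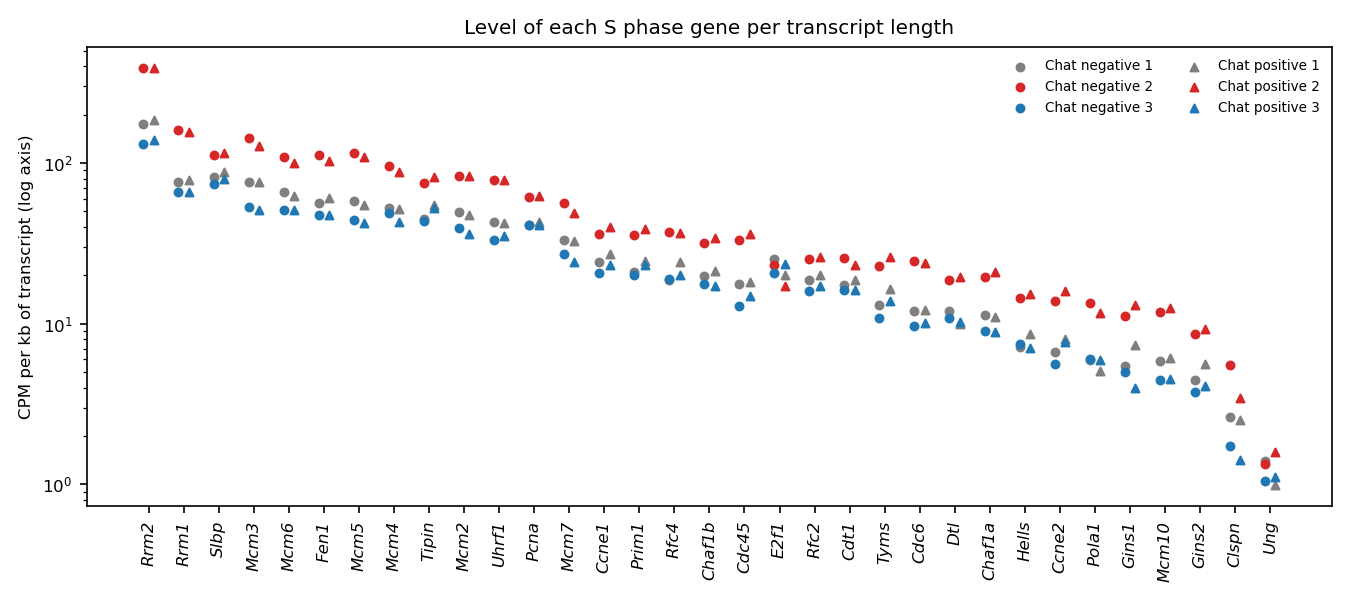
Level of each of the 33 genes as CPM per kb of transcript (log axis), with circles for Chat negative and triangles for Chat positive libraries and a colour for each number. Rrm2 is the highest with a mean of 235 and Ung the lowest with 1.25, and the points of number 2 top the column for 31 genes.

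Other genes of the pathway were counted in the same way. From 5 further lists, on licensing and firing, nucleotide supply, the fork, chromatin and G1 to S control, 108 genes were tested. Of these, 0 were called between the gates by edgeR, and 1 had an unadjusted p under 0.05 (E2f6, with means of 35.4 and 45.6 CPM). Over all 12967 genes tested, 315 had such a p. For the number, 84 of the 108 were called, where 32.5% of all genes tested were. Of those 84, 77 were highest in number 2 in both gates, a pattern with a call in 16.5% of all genes tested. In G1 to S control 15 of the 21 called genes had that pattern and in nucleotide supply 14 of 15. In the other lists each called gene had it. By list the number calls were 12 of 18 for licensing and firing, 15 of 18 for nucleotide supply, 25 of 30 for the fork, 11 of 12 for chromatin and 21 of 30 for G1 to S control.

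The genes with the smallest gate p in each list showed small differences and no call. In licensing they were Mcmbp, which binds the ring (174 and 149.6 CPM as Chat negative and Chat positive means), the origin recognition subunits Orc4 (68.3 and 81.01) and Orc3 (95.03 and 104), and the kinase Cdc7 (22.9 and 27.8). In nucleotide supply, Dtymk, the thymidylate kinase, had 41.6 and 46.3 CPM, Cmpk1 235 and 255, and Impdh2, of guanine nucleotide synthesis, 12.1 and 10.3. At the fork, the loader subunit Rfc3 had 27.6 and 34.4 CPM, Rpa3 of the single-strand binder 23.7 and 26.7, the checkpoint kinase Chek1 9.22 and 12.04, and Dscc1 9.098 and 11.2. In chromatin, Tonsl had 30.5 and 34.5 CPM, its partner Mms22l 45.3 and 40.1, and the histone chaperones Asf1a 31.7 and 35.7 and Rbbp4 447 and 465. In G1 to S control, Tfdp2 had 42.2 and 37.01 CPM, the D cyclin Ccnd2 751 and 639, and the retinoblastoma gene Rb1 134 and 108.

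Some control genes ran against the members across numbers and others with them, and these were picked after their values were seen. The cyclin-dependent kinase inhibitor Cdkn1b had 24.2, 9.94 and 23.1 CPM in Chat negative 1, 2 and 3 and 15.4, 10.3 and 22.7 CPM in Chat positive 1, 2 and 3 (adjusted p = 0.00315 for the number, edgeR). Library 2 was the lowest in each gate. Another such inhibitor, Cdkn2c, went the other way, with 28.2, 59.5 and 21.2 CPM in Chat negative 1, 2 and 3 and 31.2, 58.3 and 23.8 CPM in Chat positive 1, 2 and 3 (adjusted p = 4.72e-05, edgeR). Samhd1, which breaks down dNTPs, had 129.9, 68.8 and 120.1 CPM in Chat negative 1, 2 and 3 and 127, 62.1 and 124 CPM in Chat positive 1, 2 and 3 (adjusted p = 5.65e-05, edgeR), also lowest in library 2 in each gate. Myc was lowest there as well, with 276, 213 and 267 CPM in Chat negative 1, 2 and 3 and 262, 198 and 241 CPM in Chat positive 1, 2 and 3. In the other direction, Ccna2, the cyclin of S and G2 phase, had 134, 289.9 and 111 CPM in Chat negative 1, 2 and 3 and 137, 301 and 104 CPM in Chat positive 1, 2 and 3, and the repressor E2F genes E2f7 and E2f8 reached 36.7 and 51.2 CPM in Chat negative 2, their highest library in that gate.

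Genes of G2 and M phase were also highest in number 2. All 22 tested were called for the number and were highest in number 2 in both gates. Between the gates 0 were called by edgeR, and 0 had an unadjusted p under 0.05, against 315 of the 12967 genes tested. With the block 7 of the 22 had an unadjusted p under 0.05, where 16.5% of all genes tested did, and again 0 were called. They summed to 1981, 4054 and 1588 CPM in Chat negative 1, 2 and 3 and to 2090, 4094 and 1594 CPM in Chat positive 1, 2 and 3. Number 2 was 2.55-fold and 2.57-fold above number 3 in the 2 gates, where the S phase members were 2.21-fold and 2.12-fold above it. That gap between the lists was not tested. Mki67, the proliferation marker, had 123, 250.3 and 96.5 CPM in Chat negative 1, 2 and 3 and 96.1, 220.4 and 69.6 CPM in Chat positive 1, 2 and 3, lower in Chat positive within each number. With the block its log2 gate difference was −0.33 (SE 0.07), with adjusted p = 0.0961 (edgeR). Cdk1, the mitotic kinase, had 97.2, 181 and 88.9 CPM in Chat negative 1, 2 and 3 and 112, 202 and 90.1 CPM in Chat positive 1, 2 and 3. Top2a had 323, 616 and 269.7 CPM in Chat negative 1, 2 and 3 and 322, 596 and 243 CPM in Chat positive 1, 2 and 3. The 4 genes of this list with the smallest gate p were Mki67, Cenpe (61.9 and 52.02 CPM as Chat negative and Chat positive means), Cenpf (43.5 and 38.02) and Hmmr (66.7 and 75.6).

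Other quantities also differed between library 2 and the other libraries of its gate. Summed markers of other cells were lower in library 2 than in libraries 1 and 3 of each gate for NK cells and ILC1s (15.1 and 30.0 against 65.9 to 119 CPM), T cells (24.1 and 19.4 against 34.4 to 45.5 CPM), myeloid cells (8.37 and 8.33 against 20.2 to 24.4 CPM) and epithelial and tuft cells (37.4 and 34.4 against 54.4 to 89.7 CPM). Gzma, Cd3g, Cd68 and Epcam made up most of these sums. Of the 6 NK and ILC1 markers only Gzma passed the filter for testing, and Klra8 was at 0 in each library. Of the T cell markers 4 of 8 were tested and Cd8b1 was at 0, of the myeloid ones 3 of 7, and of the epithelial and tuft ones 3 of 7, with Trpm5 and Pou2f3 at 0. Library 2 also had the lowest sums of each gate for B cell markers (66.2 and 68.6 against 72.0 to 85.9 CPM, 1 of 6 tested), ILC3 markers (0.876 and 2.76 against 3.11 to 5.998 CPM, 2 of 5 tested) and erythroid markers (1.15 and 1.42 against 1.46 to 2.48 CPM, 2 of 6 tested, Hba-a1 at 0). For the number, 1 T cell, 1 NK and ILC1, 2 myeloid and 2 epithelial and tuft markers were called by edgeR. Of the B cell, ILC3 and erythroid markers 0 were called. Not each marker followed its sum: Krt18 was highest in library 2 of Chat positive (2.47 against 1.92 and 1.07 CPM). Mast cell markers (0 of 6 tested, 4 at 0) summed to at most 0.189 CPM. Of the ILC2 markers 5 of 12 were called for the number, near the share among all genes tested (32.5%). The next 3 were picked after their values were seen. Il7r (797 and 732 against 1153 to 1497 CPM) and Gata3 (1829 and 1603 against 2355 to 2545 CPM) were lower in library 2. Il2ra was higher there (5777 and 5755 against 3619 to 4135 CPM). Ribosomal protein genes took 0.488% and 0.492% of counts in the libraries of number 2 and 0.546% to 0.618% in the others. The part of these differences in the number result was not tested.

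Promoter windows of 250 bases before to 50 bases after a transcript start were found for 27 of the 33 members (30 windows, RefSeq, GRCm38.p6). Mcm4, Gins1, Gins2, Rfc2, Tipin and Ccne2 had none. At least 1 of the 4 E2F words stood in 11 of the 30 windows (36.7%), against 2.26% of 32851 windows of all genes. Of these windows, 22 started within 100 bases of the outer start of the gene, and 6 of those held a word (27.3%). The other 8 started 228 to 976 bases inside the gene, and 5 of those held one. The limit of 100 bases was chosen after the windows were seen. Mcm7, Cdc6, Pola1, Hells and E2f1 had only windows of the second kind, so the bases before the outer start of these genes were not searched. The 11 members with a word were Mcm3, Mcm5, Mcm6, Mcm7, Cdc6, Cdt1, Pola1, Clspn, Uhrf1, Hells and Dtl. Of the 16 matches, 11 lay upstream of the start and 5 after it. The CCAAT box, also read on both strands, stood in 19 windows (63.3%, against 37.4% of all windows), and the CHR word TTTGAA, known from genes of G2 and M phase, in 3 (10%, against 17.9%). In 1 window of Mcm7 an E2F match and a CCAAT match shared bases, and in the members' other windows no matches to different motifs did.

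Members with and without the word were both higher in number 2. The 11 members with an E2F word were a median of 2.10-fold higher in number 2 than in number 3, the 16 with a window and no word 1.93-fold, and the 6 with no window 2.12-fold. Over the 22 members with a window near the outer start, the medians were 2.31-fold for the 6 with a word and 2.098-fold for the 16 without. The sets are given as a description with no test. A match is a run of letters, not a bound site, and a window without one says only that these letters are not in it.

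**Figure D5:**
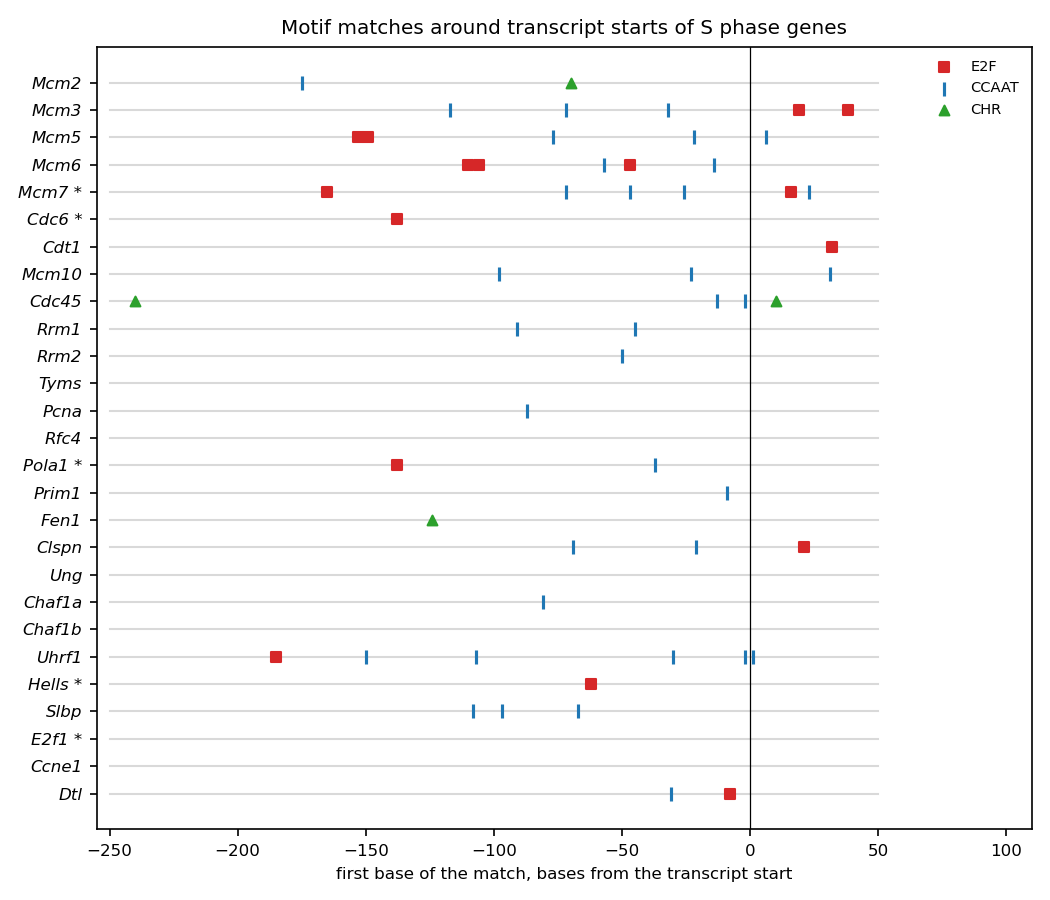
First base of each match to the E2F words (red squares), the CCAAT box (blue bars) and the CHR word (green triangles) in bases from the transcript start (x axis), for the 27 members with a RefSeq window, with windows of 1 gene drawn on 1 row and an asterisk on the 5 genes whose windows start 228 bases or more inside the gene. Red squares appear on 11 rows, 5 of the 16 right of the start, and none on the rows of Rrm2 or Ung.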

How the data were processed

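RNA of Mus musculus ILC2s from 2 sorting gates was measured in 6 libraries made with the SMARTer Ultra Low Input V4 kit, per the labels. The authors deposited raw counts per gene, named by Entrez Gene identifier, in 1 table. Per the submitters' processing notes, CASAVA 1.8.2 and STAR 2.3.0 were used with mm10. The sources used here do not give the counting program or its strand setting, so genes that overlap on opposite strands may share reads. The smallest count of a member in a library was 78 and the largest 43789. Symbols came from RefSeq (25275 of 27179 identifiers matched, and unmatched ones held at most 0.222% of a library's counts).

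Counts were filtered with filterByExpr (12967 genes left), scaled by TMM and fitted in edgeR 4.0.16 (R 4.3.3) with robust quasi-likelihood, with Benjamini-Hochberg adjustment over all genes tested and a threshold of 5%. The gate was tested alone (4 residual degrees of freedom). A second test took the replicate number with the gate as a covariate (2 residual degrees of freedom). Tested on simulated data, this fit and the block called unchanged genes in a larger share of their calls than the threshold. Replicate numbers were treated as pairs in the fits that hold the number, while the main gate test left them out. The deviations of the 3 same-numbered pairs correlated at 0.290, 0.674 and 0.430. Chat negative 1 correlated at 0.301 with Chat positive 3. As deviations from a gate mean cancel out within the gate, this measure cannot separate numbers 1 and 3. Their pairing is an assumption. These correlations are a finding from the data, and no label states that equal numbers are pairs. Counts of the 2 most similar libraries of a gate differed by a chi-square of 29.9 per degree of freedom, so each library was counted as its own replicate.

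The members and gene lists were chosen with earlier results of these data known, so lists are described by counts and medians with no test. Values in each library are given for the member of each step with the highest CPM, the largest gate difference or the smallest p for the number, for E2f1, Mcm2, Pcna and Rrm2, and for further members. From each other list, up to 4 genes with the smallest gate p are named, with Mki67, Top2a, Cdk1 and Chat in addition. A gene that this rule names is not reported here. Transcript length (the longest protein-coding transcript of a gene) and gene overlap came from the GENCODE annotation of GRCm38. Alternatives were scaling by RLE, by upper quartile or by library size, no low-count filter, at least 5 CPM in 3 libraries, non-robust edgeR, DESeq2 1.42.0, limma-voom (limma 3.58.1), the replicate block, a threshold of 10% and each library left out. Leaving out both libraries of a number was added after seeing the data.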

Additional observations from a re-analysis of the deposited data

How the results depend on the processing

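The 5 summary values of the gate and number results were recomputed under the alternatives, which gave 85 recomputed values, and 79 were labelled the same. A count was labelled the same if it stayed at 0 or within a set fold of its main value. The median and the summed log2 ratio were labelled the same if they moved by less than 1 SD between libraries (0.47 and 0.58). That label takes no account of their sign. The count of members called between the gates was 0 under each alternative run, the replicate block included. Without the block 0 to 4 of all genes tested were called, so a count of 0 says little there. Paired by number, the members' smallest adjusted p was 0.130 with edgeR, 0.0634 with DESeq2 and 0.183 with limma-voom. Those fits called 44 of 12967, 461 of 9196 and 1 of 12967 genes. In the DESeq2 block 32 members had an adjusted p. Leaving out 1 library at a time moved the count of members above 0 between the gates from 0 to 31 and their median log2 difference from −0.37 to 0.43. It moved the members called for the number from 28 to 32. Without both libraries of number 2 that count was 0, and the cause was not tested. The gate difference of Cdc6, near 0, changed sign with library size alone (0.0136), without the low-count filter (0.00119), with limma-voom (0.0315), with the replicate block in edgeR (0.0119), DESeq2 (0.00331) and limma-voom (0.00214), and without both libraries of number 2 (0.0337). Rrm1 changed sign with library size alone (0.00814) and without number 2 (0.012), as did Cdt1 (0.0517), Fen1 (0.0514) and Chaf1a (−0.0471) without number 2. With 1 library left out, the sign of the log2 gate difference changed for 32 of 33 members, and the lowest to highest values were Mcm2 −0.47 to 0.32, Mcm3 −0.51 to 0.39, Mcm4 −0.47 to 0.27, Mcm5 −0.57 to 0.43, Mcm6 −0.42 to 0.27, Mcm7 −0.45 to 0.22, Cdc6 −0.47 to 0.50, Cdt1 −0.18 to 0.21, Mcm10 −0.46 to 0.58, Cdc45 −0.37 to 0.60, Gins1 −0.35 to 0.64, Gins2 −0.21 to 0.63, Rrm1 −0.49 to 0.49, Rrm2 −0.52 to 0.64, Tyms −0.0474 to 0.65, Pcna −0.19 to 0.24. For the others they were Rfc2 −0.11 to 0.28, Rfc4 −0.17 to 0.51, Pola1 −0.62 to 0.34, Prim1 −0.10 to 0.50, Fen1 −0.41 to 0.43, Clspn −0.74 to 0.18, Tipin −0.0293 to 0.52, Ung −0.28 to 0.0871, Chaf1a −0.43 to 0.42, Chaf1b −0.26 to 0.37, Uhrf1 −0.42 to 0.44, Hells −0.30 to 0.51, Slbp −0.10 to 0.26, Ccne1 −0.10 to 0.43, Ccne2 −0.15 to 0.78, Dtl −0.46 to 0.21. Ung had the lowest counts of the members, with 78 in 1 library.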
